A study of Homo sapiens with 6 samples.

Results

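The hypoxia response and glycolysis genes of HEK293 cells were examined as 1 group of 35 genes, chosen by symbol: the oxygen-regulated transcription factors and their hydroxylases, 10 further genes that these factors are known to switch on, 2 glucose transporters, and the enzymes that carry glucose to pyruvate and lactate. All 35 were found among the 63677 genes of the count table, and 34 passed the filter on low counts and were tested with 22331 genes in all. HEK293 is a human embryonic kidney line. The cells received an siRNA against circRAB3IP, an siRNA against circCAMSAP1 or a control siRNA (labelled NTC), delivered with Lipofectamine RNAiMAX, and poly(A) RNA was read 48 hours later from 2 libraries per group. Both targets are circular RNAs, from the RAB3IP and CAMSAP1 genes, which lack a poly(A) tail, and the poly(A) selection of these libraries means that the knockdowns themselves were not measured. The groups are called control, siRAB3IP and siCAMSAP1. All of them had transfection and 48 hours of culture in common, and nothing in the labels gives a low-oxygen treatment, a genetic change or the number of siRNAs per target. The series title links circRAB3IP to proliferation and mRNA processing. The design sets each knockdown against control and allows the knockdowns to be compared with each other.

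In cells with oxygen, prolyl hydroxylases of the EGLN family mark the alpha subunits of hypoxia-inducible factor, HIF1A and EPAS1, for capture by the VHL ubiquitin ligase and degradation. When oxygen or the hydroxylases fall short, the alpha subunits persist and bind DNA at sites with the core ACGTG or GCGTG, and they raise transcripts for vessel growth, mitophagy, collagen hydroxylation, glucose uptake and glycolysis. The alpha subunits are controlled mostly at the protein level, which mRNA counts do not show. Cultured tumour and immortalised lines run glycolysis at high flux with oxygen present, and its enzymes are among their most abundant mRNAs.

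The names of the libraries are in conflict. In 4 of 6 libraries the title of the sample record differs from the name that the authors' deposited comparison tables give the same library, and the genotype field exchanges the knockdown names relative to the titles. The groups here follow the library identifiers as named in the deposited tables. Grouped by record titles, edgeR's quasi-likelihood test called 0 of the 34 genes in each of the 3 comparisons (0, 1 and 0 at an unadjusted p under 0.05), with log2 fold changes from -0.51 to 0.49 in siRAB3IP against control. No source used here settles which naming is right. The libraries held 37379217 to 39637733 fragments assigned to genes, and 3 fragments stood for 0.0725 to 0.0802 CPM (fragment counts normalised to the scaled library size). The labels do not say whether the 2 libraries within a group are separate cultures. Every p-value therefore reflects the spread between libraries alone, and that spread may be technical. HEK293 markers were present: KRT8, KRT18, VIM and STMN1 had 236 to 876 CPM in control, while NEFM and PAX2 were near 0. The summed level of the 7 markers found was 1833 to 1935 CPM in control, 1398 to 1657 in siRAB3IP and 1614 to 1618 in siCAMSAP1. In siRAB3IP the keratins KRT18 (-0.72 ± 0.09) and KRT8 (-0.56 ± 0.10, a call lost without siRAB3IP library 1) fell and INA (1.51 ± 0.21) rose, as log2 fold changes ± SE. Their part in the results below was not tested. The 5 hepatocyte markers summed to 0.264 to 0.438 CPM in every library. Of the blood cell markers, HBB was at 0 and PTPRC and CD3E were at or near 0. The 7 fibroblast and endothelial markers summed to 17.6 to 20.98, 14.4 to 21.6 and 16.6 to 23.8 CPM, with COL1A2 and DCN near 0. For PECAM1 the identifier matched lies on a patch sequence and was at 0 throughout. A copy on the main chromosome was not matched by symbol, so the level of PECAM1 was not measured here. Among these low markers COL1A1 (-0.79 ± 0.14) fell and VWF (0.91 ± 0.20, a call lost without siRAB3IP library 2) rose in siRAB3IP against control. Against siCAMSAP1 edgeR also put HBA1 higher, a call lost in 7 of the 14 other analyses that tested it.

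siRAB3IP moved several oxygen-responsive genes, both glucose transporters in opposite directions and the hexokinase HK2. Of the 34 genes tested, 7 rose (ADM, HK2, SLC2A1, P4HA2, BNIP3, VEGFA and HIF1A) and 3 fell (EGLN3, SLC2A3 and PFKL), called by edgeR's quasi-likelihood test at a Benjamini-Hochberg adjusted p under 0.05. That is 29.4% of these genes, against 12% of all genes tested in this comparison. The rises were 20.6% of them against 6.58% of all genes, and the falls 8.82% against 5.38%. Those shares over all genes include many of low level. A stricter filter, an average level of 5 CPM or higher, left 11783 genes, of which 2398 were called, 1186 higher and 1212 lower. It kept 31 of the 34, with the same 7 rises and 3 falls. Against these more abundant genes the excess of calls was smaller, and the falls were not in excess. Other shares over all genes given here refer to the 22331. Over all genes, 1469 rose and 1202 fell, which became 1296 and 1412 with upper-quartile scaling, while the counts for the 34 genes stayed at 7 and 3. Without siRAB3IP library 1, 5 of the 34 were called. In bulk libraries such as these, a change in level per cell and a change in the share of cells that express a gene cannot be told apart. The median log2 fold change was 0.13 over the 34 genes and -0.01 over all genes tested. siCAMSAP1 raised 1 of the 34 genes, ADM, and lowered 0, or 2.94% against 1.06% of all genes called, with 0.519% higher and 0.542% lower (116 and 121 genes; 102 and 163 with upper-quartile scaling). The siCAMSAP1 count was 0 without control library 2, siCAMSAP1 library 1 or either siRAB3IP library. At an unadjusted p under 0.05 by edgeR there were 15 of the 34 genes in siRAB3IP and 7 in siCAMSAP1. Over all 22331 genes tested there were 5758 and 2707. Set against siCAMSAP1, siRAB3IP had 5 of them higher and 2 lower, or 20.6% against 9.29% of all genes, with 5.14% of all genes higher and 4.15% lower. This count of 7 fell to 2 without siRAB3IP library 2 and to 4 without siRAB3IP library 1 or either siCAMSAP1 library. Since these comparisons share libraries, each is given with its own values below.

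**Figure D1:**
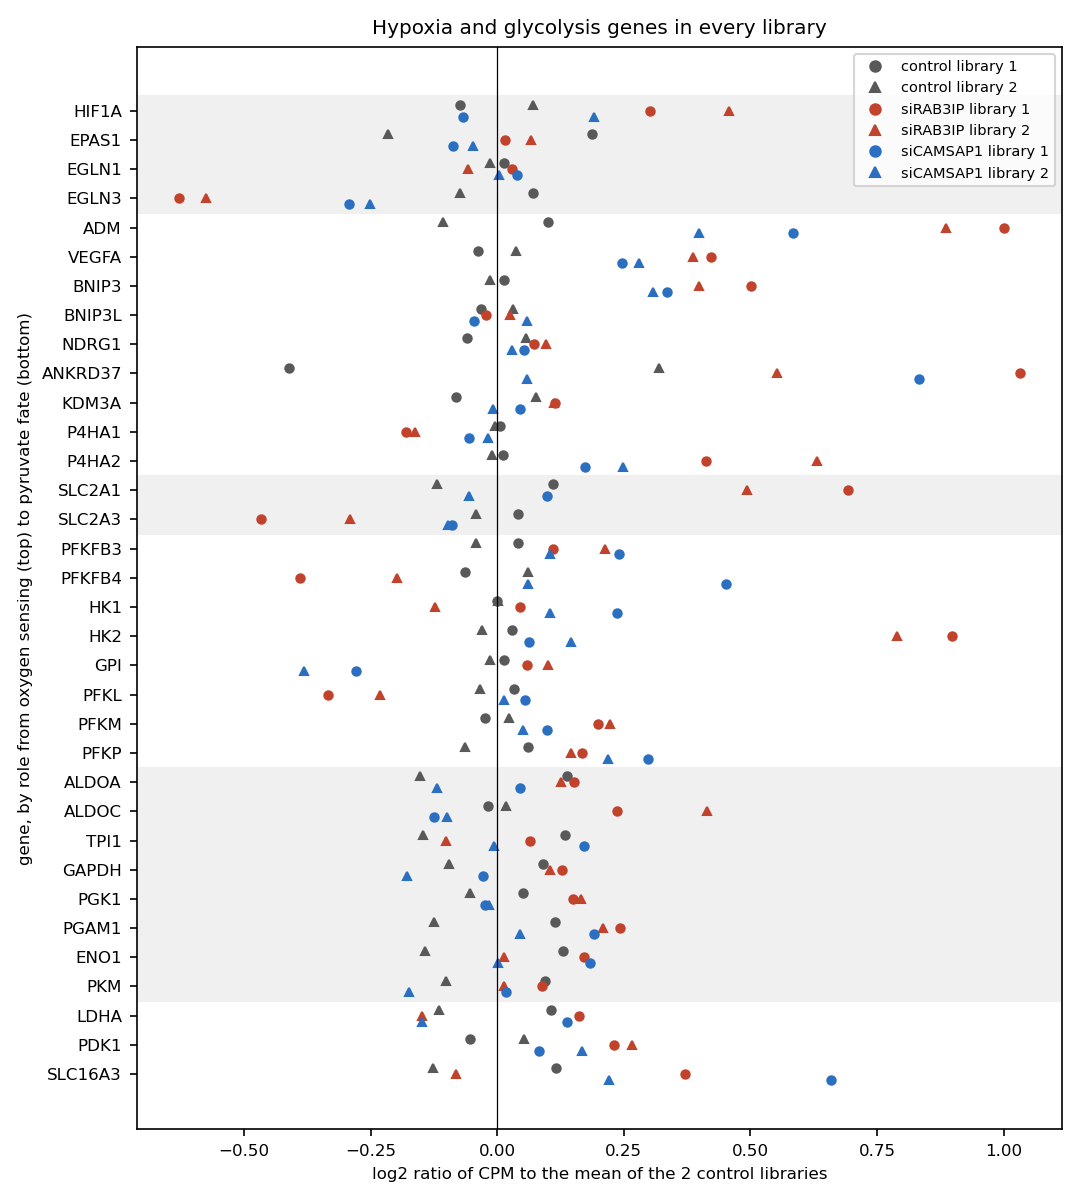
Level of each of the 34 genes tested in each of the 6 libraries, as the log2 ratio of its CPM (x axis) to the mean of the 2 control libraries, with genes on the y axis ordered by role; grey, red and blue mark control, siRAB3IP and siCAMSAP1, circles and triangles libraries 1 and 2. Both siRAB3IP libraries lie far to the right for ADM and HK2 and to the left for EGLN3, and the siRAB3IP points of lower glycolysis, from aldolase to pyruvate kinase, lie mostly above 0, between -0.10 for TPI1 and 0.41 for ALDOC.

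Among the genes of oxygen sensing, siRAB3IP raised HIF1A and lowered EGLN3, and the other alpha subunit and the other hydroxylase gave no call. HIF1A (hg19 chromosome 14, 62162231 to 62214976) had 117 and 129 CPM in control, 152 and 169 in siRAB3IP, and 117 and 140 in siCAMSAP1. Both siRAB3IP libraries were above the other 4. The log2 fold change was 0.38 ± 0.10 (SE; adjusted p = 0.0216 by edgeR's quasi-likelihood test) in siRAB3IP and 0.07 ± 0.10 (adjusted p = 0.852) in siCAMSAP1. The siRAB3IP call was lost without control library 1 (log2 fold change 0.30) or siRAB3IP library 2. EPAS1, the alpha subunit best known from endothelium and kidney, had 31.0 and 23.4 CPM in control, 27.5 and 28.5 in siRAB3IP, and 25.6 and 26.3 in siCAMSAP1, so that the groups overlapped. Per kilobase of gene length, HIF1A made up 86.5 ± 3.13% (SD, n = 2) of the summed HIF1A and EPAS1 level in control, 89.0 ± 0.497% in siRAB3IP and 87.5 ± 1.18% in siCAMSAP1.

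EGLN3, a hydroxylase that is itself a HIF target, had 12.19 and 11.02 CPM in control, 7.50 and 7.79 in siRAB3IP, and 9.48 and 9.74 in siCAMSAP1. The 3 groups did not overlap, with siRAB3IP lowest. Its log2 fold change was -0.60 ± 0.13 (adjusted p = 0.00796 by the same edgeR test) in siRAB3IP, and -0.27 ± 0.12 (adjusted p = 0.401) in siCAMSAP1. Without siRAB3IP library 1 the adjusted p was 0.0593. EGLN1, the main hydroxylase for HIF alpha in most cells and the more abundant of this pair, stayed between 78.9 and 84.4 CPM in all 6 libraries (log2 fold change -0.01 ± 0.08 in siRAB3IP). EGLN3 made up 12.2 ± 0.619% of their summed level per kilobase in control, 8.50 ± 0.539% in siRAB3IP and 10.2 ± 0.338% in siCAMSAP1.

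The 10 HIF targets outside glucose metabolism gave 4 rises and 0 falls among the 9 tested in siRAB3IP, where 6.58% of all genes rose and 5.38% fell. ADM encodes adrenomedullin, a vasodilator peptide (chromosome 11, 10326227 to 10328944), and it had 20.0 and 17.4 CPM in control, 37.4 and 34.6 in siRAB3IP, and 28.0 and 24.6 in siCAMSAP1. The groups were fully separated, with siCAMSAP1 in between. ADM rose 1.93-fold in siRAB3IP (log2 fold change 0.95 ± 0.11, adjusted p = 0.0001485 by edgeR's quasi-likelihood test), a call kept under all 15 other analyses with these group names. In siCAMSAP1 it rose 1.41-fold (0.50 ± 0.11, adjusted p = 0.0438), and this call ended in 8 of the 15, among them limma-voom and leaving out control library 2, siCAMSAP1 library 1 or either siRAB3IP library. The adjusted p of the siCAMSAP1 rise ranged from 0.000137 to 0.306 over the 15. The knockdowns differed from each other by 0.45 ± 0.10 (adjusted p = 0.0154), a call lost without siRAB3IP library 1 or 2 or siCAMSAP1 library 2.

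VEGFA, the main growth factor of blood vessels, had 32.2 and 33.9 CPM in control, 44.3 and 43.2 in siRAB3IP, and 39.2 and 40.1 in siCAMSAP1. Again no libraries of different groups overlapped and siCAMSAP1 was intermediate. The log2 fold change was 0.40 ± 0.08 (adjusted p = 0.00693 by edgeR) in siRAB3IP and 0.26 ± 0.08 (adjusted p = 0.189) in siCAMSAP1. BNIP3, a mitophagy receptor of the outer mitochondrial membrane, had 22.6 and 22.2 CPM in control, 31.7 and 29.6 in siRAB3IP, and 28.3 and 27.8 in siCAMSAP1. It rose by 0.45 ± 0.09 (adjusted p = 0.00620) in siRAB3IP, and its value in siCAMSAP1 was 0.32 ± 0.09 (adjusted p = 0.132). Its annotation has 42 pseudogenes, whose fragments together equal 24.4% of those counted for BNIP3, so its level is uncertain. For VEGFA and BNIP3 the siRAB3IP call was lost without siRAB3IP library 1, with adjusted p of 0.0564 and 0.0653. The paralog BNIP3L gave a log2 fold change of 0.00 ± 0.08 in siRAB3IP and 0.01 ± 0.08 in siCAMSAP1. BNIP3 made up 38.3 ± 1.05% of the pair's level per kilobase in control, 45.9 ± 1.84% in siRAB3IP and 43.6 ± 1.61% in siCAMSAP1.

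P4HA1 and P4HA2 encode alternative catalytic subunits of collagen prolyl hydroxylase, and P4HA2 alone was called in siRAB3IP. P4HA2 had 27.5 and 27.0 CPM in control, 36.3 and 42.2 in siRAB3IP, and 30.7 and 32.4 in siCAMSAP1. It rose by 0.53 ± 0.10 (adjusted p = 0.00322 by edgeR) in siRAB3IP, a call lost without siRAB3IP library 2 (adjusted p = 0.0510), and its value in siCAMSAP1 was 0.21 ± 0.10 (adjusted p = 0.394). P4HA1, the more abundant, had 36.3 and 36.0 CPM in control, 31.9 and 32.3 in siRAB3IP, and 34.8 and 35.7 in siCAMSAP1, with a log2 fold change of -0.17 ± 0.08 (adjusted p = 0.215) in siRAB3IP. The P4HA2 share of the pair per kilobase was 22.0 ± 0.105% in control, 31.4 ± 2.14% in siRAB3IP and 25.1 ± 0.353% in siCAMSAP1. No test was run on this or any other share. The length used is that of all annotated exons of a gene, 8502 bases for P4HA2 and 3186 for P4HA1. The size of each share therefore depends on the annotation.

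The remaining HIF targets of this kind gave no call in any comparison. NDRG1, a widely used hypoxia marker and the most abundant of them, had log2 fold changes of 0.09 ± 0.08 in siRAB3IP and 0.04 ± 0.08 in siCAMSAP1. For the histone demethylase KDM3A they were 0.11 ± 0.08 and 0.02 ± 0.08. ANKRD37 was low, with a log2 fold change of 0.80 ± 0.35 (adjusted p = 0.166 by edgeR) in siRAB3IP, and 35.2% of its exon length overlaps UFSP2 on the other strand. Counting was unstranded, so reads of such a pair cannot be told apart. CA9, the tumour carbonic anhydrase induced by hypoxia, had 1 fragment in each control and each siCAMSAP1 library and 0 in each siRAB3IP library. All are below the floor of 3 fragments and allow no comparison.

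Promoter sequences are shown for 6 genes that carry these differences, or, in LDHA, show a promoter rich in the HIF core whose gene gave no call. Each line holds the 250 bases upstream of the transcription start from RefSeq (GRCh38.p14), 5′ to 3′ on the gene's strand, with ACGTG or GCGTG on either strand in capitals. They lie at chr2:74833877-74834126 (+) for HK2, chr1:42958869-42959118 (-) for SLC2A1, chr11:10304823-10305072 (+) for ADM, chr10:131981924-131982173 (-) for BNIP3, chr14:33951075-33951324 (-) for EGLN3 and chr11:18394313-18394562 (+) for LDHA.
HK2: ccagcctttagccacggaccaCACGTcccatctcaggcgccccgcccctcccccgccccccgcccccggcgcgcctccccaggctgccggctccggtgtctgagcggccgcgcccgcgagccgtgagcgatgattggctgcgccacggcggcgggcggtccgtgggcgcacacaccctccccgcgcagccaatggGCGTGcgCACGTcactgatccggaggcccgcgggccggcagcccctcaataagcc
SLC2A1: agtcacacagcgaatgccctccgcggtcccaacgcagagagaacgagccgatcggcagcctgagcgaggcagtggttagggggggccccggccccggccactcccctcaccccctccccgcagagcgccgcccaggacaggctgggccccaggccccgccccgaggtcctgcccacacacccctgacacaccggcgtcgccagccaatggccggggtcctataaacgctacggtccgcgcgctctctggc
ADM: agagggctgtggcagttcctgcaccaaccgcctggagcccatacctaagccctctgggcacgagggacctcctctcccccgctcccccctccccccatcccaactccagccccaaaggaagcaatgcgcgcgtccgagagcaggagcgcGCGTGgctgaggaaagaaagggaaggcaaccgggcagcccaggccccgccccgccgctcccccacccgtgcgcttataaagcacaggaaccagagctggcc
BNIP3: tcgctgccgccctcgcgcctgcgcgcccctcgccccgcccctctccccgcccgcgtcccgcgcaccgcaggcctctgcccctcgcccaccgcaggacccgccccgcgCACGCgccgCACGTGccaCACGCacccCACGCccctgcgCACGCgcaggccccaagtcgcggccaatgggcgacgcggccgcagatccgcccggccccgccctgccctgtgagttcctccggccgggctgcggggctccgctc
EGLN3: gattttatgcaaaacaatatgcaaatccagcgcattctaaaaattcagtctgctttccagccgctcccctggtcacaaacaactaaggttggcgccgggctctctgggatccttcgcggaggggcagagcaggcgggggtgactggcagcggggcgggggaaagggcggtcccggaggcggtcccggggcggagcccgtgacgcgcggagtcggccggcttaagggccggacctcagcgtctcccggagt
LDHA: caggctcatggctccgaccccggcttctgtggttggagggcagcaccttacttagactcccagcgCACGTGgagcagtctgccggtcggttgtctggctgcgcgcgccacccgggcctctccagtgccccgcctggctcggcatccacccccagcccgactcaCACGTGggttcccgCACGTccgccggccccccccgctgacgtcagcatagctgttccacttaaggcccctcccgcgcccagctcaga
HK2 has 2 matches to ACGTG and 1 to GCGTG upstream, ADM 1 to GCGTG, BNIP3 2 to ACGTG and 4 to GCGTG, and LDHA 5 to ACGTG, where a CACGTG palindrome counts once per strand. SLC2A1 has no match upstream and 1 past its start, and EGLN3 has none. RefSeq windows of 300 bases, 250 before and 50 after the start, were at hand for 31 of the 35 genes and not for NDRG1, VEGFA, SLC2A3 and BNIP3L. ACGTG or GCGTG was present in 22 of the 31 (71.0%) and in 48.4% of the 27305 windows of all genes. The share was 75.0% (6 of 8) among genes called in siRAB3IP against control and 68.2% (15 of 22) among those tested and not called. ACGTG was present in 25.0% of the former, 40.9% of the latter and 21.6% of the windows of all genes. For GCGTG the shares were 75.0%, 40.9% and 36.3%. These are letter matches, not binding sites. The windows of all genes include genes that were not tested here, and they were not matched to the 31 in base content.

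The balance of the glucose transporter transcripts shifted in siRAB3IP, with SLC2A1 higher and SLC2A3 lower. SLC2A1, the transporter GLUT1 (hg19 chromosome 1, 43391052 to 43424530), had 56.4 and 48.1 CPM in control, 84.4 and 73.6 in siRAB3IP, and 55.9 and 50.3 in siCAMSAP1. Both siRAB3IP libraries lay above the other 4, and control and siCAMSAP1 overlapped. It rose 1.51-fold in siRAB3IP (log2 fold change 0.60 ± 0.10, adjusted p = 0.00206 by edgeR's quasi-likelihood test). In siCAMSAP1 it was at 0.02 ± 0.10 (adjusted p = 0.958), and the knockdowns differed by 0.57 ± 0.10 (adjusted p = 0.00321). SLC2A3, the high-affinity transporter GLUT3 and the more abundant here, moved the other way, with 322 and 303 CPM in control, 226 and 255 in siRAB3IP, and 294 and 292 in siCAMSAP1. Its log2 fold change was -0.38 ± 0.08 (adjusted p = 0.0103) in siRAB3IP, a call lost without siRAB3IP library 1 (adjusted p = 0.131). It was -0.09 ± 0.08 (adjusted p = 0.724) in siCAMSAP1. Against siCAMSAP1, SLC2A3 was lower by 0.28 on the log2 scale (-0.28 ± 0.08, adjusted p = 0.0471 by edgeR), which ended in 6 of 15 other analyses: RLE scaling, edgeR without robust spread, and leaving out any siRAB3IP or siCAMSAP1 library. Per kilobase, SLC2A1 made up 20.4 and 18.8% of the summed level of this pair in control, 35.3 and 29.6% in siRAB3IP, and 21.8 and 20.1% in siCAMSAP1. The pair's summed CPM was 351 to 378 in control, 311 to 329 in siRAB3IP and 343 to 350 in siCAMSAP1.

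Of the glycolytic enzymes among these genes, HK2 changed most. HK2, the inducible hexokinase of muscle and tumour cells (chromosome 2, 75061108 to 75120486), had 30.7 and 29.5 CPM in control, 56.1 and 52.0 in siRAB3IP, and 31.4 and 33.3 in siCAMSAP1. Both siRAB3IP libraries were over 50 CPM and the other 4 under 34. It rose 1.80-fold in siRAB3IP (0.84 ± 0.09, adjusted p = 8.097e-05 by edgeR) and was 1.67-fold higher than in siCAMSAP1 (0.74 ± 0.09, adjusted p = 0.000246). In siCAMSAP1 itself the value was 0.11 ± 0.09 (adjusted p = 0.700). The calls of HK2 and SLC2A1 in siRAB3IP, against control and against siCAMSAP1, were kept in 15 of 15 other analyses. HK2 shares 7 exon bases with HK2-DT on the other strand, which had 382 fragments in all against 8982 for HK2. HK1, the constitutive hexokinase, had 130 and 130 CPM in control, 134 and 120 in siRAB3IP, and 153 and 140 in siCAMSAP1, with log2 fold changes of -0.04 ± 0.08 and 0.17 ± 0.08 and no call. Per kilobase, HK2 made up 19.4 and 18.7% of the 2 hexokinases in control, 29.8 and 30.7% in siRAB3IP, and 17.3 and 19.5% in siCAMSAP1.

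**Figure D2:**
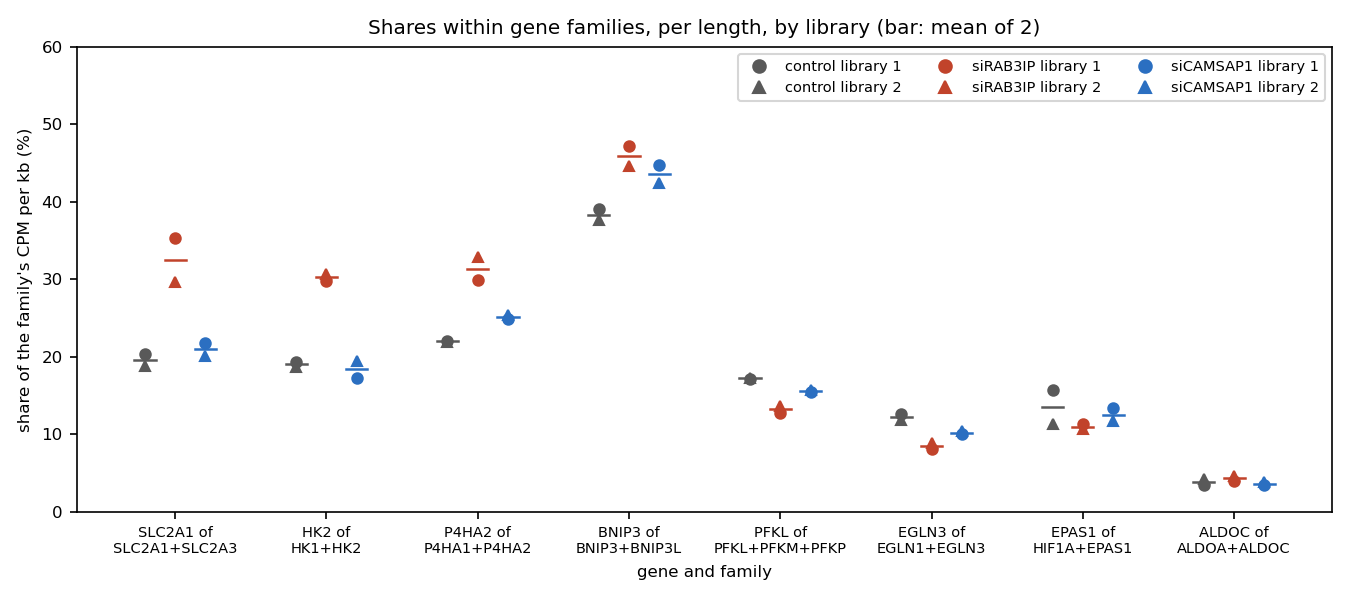
Share of each gene in the summed CPM per kilobase of its family (y axis, %) in each library, with grey, red and blue for control, siRAB3IP and siCAMSAP1, circles and triangles for libraries 1 and 2, and a bar for the mean of 2. The SLC2A1, HK2 and P4HA2 shares are higher in both siRAB3IP libraries than in the other 4 libraries, and the PFKL and EGLN3 shares lower.

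In the rest of upper glycolysis 1 enzyme fell in siRAB3IP and another differed between the knockdowns. PFKL, the liver-type subunit of phosphofructokinase, the committed step, had 94.9 and 90.6 CPM in control, 73.6 and 79.1 in siRAB3IP, and 96.4 and 93.6 in siCAMSAP1. Both siRAB3IP libraries were below the other 4. The log2 fold change was -0.28 ± 0.08 (adjusted p = 0.0324 by edgeR) against control and -0.32 ± 0.08 (adjusted p = 0.0217) against siCAMSAP1. Each call ended without any 1 of the 4 libraries compared, with adjusted p up to 0.234 and 0.175. The muscle type PFKM was at 0.21 ± 0.07 (adjusted p = 0.0857) and the platelet type PFKP, the most abundant subunit at 170 to 219 CPM, at 0.16 ± 0.08 (adjusted p = 0.228) in siRAB3IP. PFKM shares 8.62% of its length with SENP1 on the other strand. Per kilobase PFKL made up 17.2 ± 0.0820% of the 3 subunits in control, 13.2 ± 0.641% in siRAB3IP and 15.6 ± 0.186% in siCAMSAP1.

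GPI, glucose-6-phosphate isomerase, was at its lowest in siCAMSAP1. It had 285 and 279 CPM in control, 294 and 303 in siRAB3IP, and 233 and 217 in siCAMSAP1. The knockdowns differed by 0.41 ± 0.08 (adjusted p = 0.00502 by edgeR), a call lost without siRAB3IP library 2 or siCAMSAP1 library 2. Against control, the log2 fold change in siCAMSAP1 was -0.33 ± 0.08 (adjusted p = 0.0617), and 5 of 15 other analyses put it past the threshold, with adjusted p from 0.000177 to 0.380 over the 15. GPI was also listed as lower in the authors' deposited table for siCAMSAP1, at -0.33. PFKFB3 and PFKFB4 make and break the activator of phosphofructokinase. PFKFB3 was at 0.16 ± 0.10 in siRAB3IP and 0.17 ± 0.10 in siCAMSAP1. PFKFB4 had 4.70 and 5.12 CPM in control, 3.75 and 4.28 in siRAB3IP, and 6.72 and 5.13 in siCAMSAP1, and the knockdowns differed by -0.56 ± 0.18 (adjusted p = 0.0673).

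Lower glycolysis, the steps from aldolase to pyruvate kinase, holds the most abundant of these mRNAs, and edgeR called 0 of its 8 genes in either knockdown against control, where 12% and 1.06% of all genes were called. With 8 genes, a count of 0 is near that background. At an unadjusted p under 0.05 by edgeR there were 2 in siRAB3IP and 0 in siCAMSAP1, against 5758 and 2707 of all 22331 genes. DESeq2 called 0 in both. A fit that paired libraries by number called 3 in siRAB3IP (ALDOC, PGK1 and PGAM1), and 5590 of all 22331 genes. The labels tie those numbers to nothing. In siRAB3IP 7 of the 8 log2 fold changes were above 0, with a median of 0.13. ENO1, enolase, led all 35 genes per kilobase in control at 671 ± 89.0 CPM per kb (SD, n = 2). GAPDH followed at 397 ± 35.9, the triosephosphate isomerase TPI1 at 331 ± 45.2 and the pyruvate kinase PKM at 158 ± 15.0 CPM per kb, and no control library of one overlapped the next. LDHA, PGAM1, ALDOA and PGK1, at 98.2 to 113 CPM per kb, each overlapped the next in order. Both control libraries of LDHA (121 and 104 CPM per kb) were above those of PGK1 (102 and 94.6). SLC2A3 (50.7 ± 2.10), PFKP (36.9 ± 2.24) and GPI (31.0 ± 0.438) came next, and CA9 (0.0152 ± 0.00110) was last. SLC16A3 (0.332 ± 0.0395) and ANKRD37 (0.330 ± 0.116) stood just above it and overlapped. This order divides by the length of all annotated exons of a gene, so it depends on the annotation as well as on the libraries.

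ENO1 had 2905 and 2407 CPM in control, 2991 and 2680 in siRAB3IP, and 3017 and 2658 in siCAMSAP1, and its log2 fold changes were 0.09 ± 0.11 and 0.10 ± 0.11. Library 1 exceeded library 2 in every group, by more than the groups differed. The same order in all 3 groups held for 6 of the 8 genes of lower glycolysis (75.0%) and for 21.1% of all genes tested. GAPDH had 1256 and 1104 CPM in control, 1289 and 1268 in siRAB3IP, and 1157 and 1043 in siCAMSAP1 (0.12 ± 0.09 and -0.10 ± 0.09). Fold changes of TPI1, PGK1, PGAM1, PKM and ALDOA ranged from -0.02 ± 0.10 for TPI1 to 0.23 ± 0.09 for PGAM1 in siRAB3IP, and from -0.08 ± 0.09 for PKM to 0.12 ± 0.09 for PGAM1 in siCAMSAP1, on the log2 scale. PGAM1, phosphoglycerate mutase, was called in siRAB3IP without control library 1. ALDOC, the brain-type aldolase, had 11.7 and 11.9 CPM in control, 13.9 and 15.7 in siRAB3IP, and 10.8 and 11.01 in siCAMSAP1. Its siRAB3IP libraries were above the other 4, with 0.33 ± 0.12 (adjusted p = 0.0864 by edgeR) against control and 0.44 ± 0.12 (adjusted p = 0.0303) against siCAMSAP1. The latter call ended without any 1 of the 4 libraries compared.

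At the exit from glycolysis edgeR called 0 of 3 genes in each comparison, as did DESeq2. Of all genes edgeR called 12% in siRAB3IP, 1.06% in siCAMSAP1 and 9.29% between the knockdowns. At an unadjusted p under 0.05 by edgeR there was 1 of the 3 in siRAB3IP against control, PDK1. The fit that paired libraries by number also called PDK1 there. LDHA, lactate dehydrogenase A and a textbook HIF target, had 754 and 647 CPM in control, 783 and 632 in siRAB3IP, and 771 and 632 in siCAMSAP1, with log2 fold changes of 0.01 ± 0.12 and 0.00 ± 0.12. PDK1, the kinase that shuts off pyruvate dehydrogenase, had 33.1 and 35.6 CPM in control, 40.3 and 41.3 in siRAB3IP, and 36.4 and 38.6 in siCAMSAP1. Its siRAB3IP libraries were the highest 2, at 0.25 ± 0.09 (adjusted p = 0.0780 by edgeR). The lactate exporter SLC16A3 was low, at 2.73 to 4.71 CPM in all libraries, and shares 5.36% of its length with CSNK1D on the other strand. The summed CPM of all 35 genes was 9470 to 10819 in control, 10440 to 11075 in siRAB3IP and 9743 to 10773 in siCAMSAP1, so that the groups overlapped.

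**Figure D3:**
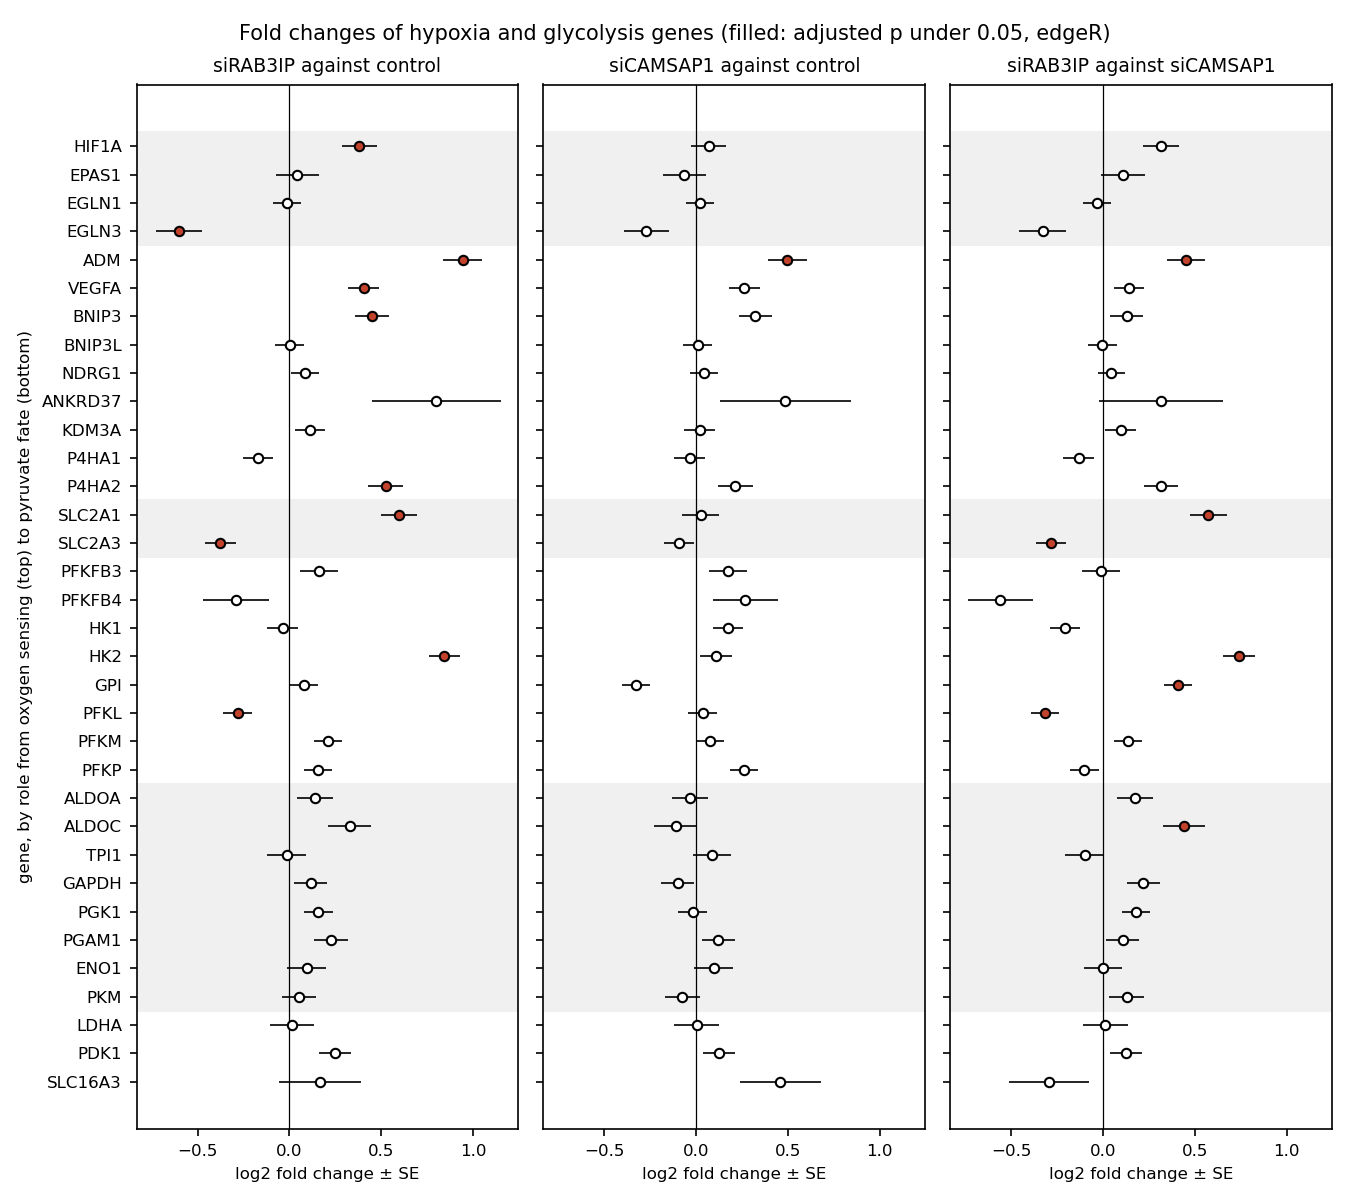
Log2 fold change (x axis) with its standard error for the 34 genes tested, on the y axis by role, in siRAB3IP against control, siCAMSAP1 against control and siRAB3IP against siCAMSAP1; filled points passed the 0.05 threshold of edgeR's test after adjustment. There are 10, 1 and 7 filled points, and ADM is the only gene filled in all 3 panels.

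Genes around the pathway, from lists that share no gene with the 35 or with each other, moved in both directions. These lists too were chosen with earlier results of these data known, so their shares are description only. Over all genes tested, 12% were called in siRAB3IP against control (6.58% higher, 5.38% lower) and 9.29% against siCAMSAP1 (5.14% and 4.15%). Of 14 tested regulators of oxygen sensing, 3 rose and 0 fell in siRAB3IP: the ubiquitin ligase subunit VHL (0.30 ± 0.08), its partner elongin C, ELOC (0.32 ± 0.09), and SIAH2 (0.38 ± 0.10), a ligase for EGLN proteins. Without siRAB3IP library 1 edgeR called 0 of the 14. VHL also lost its call without siRAB3IP library 2 or either control library, ELOC without siRAB3IP library 2 or control library 2, and SIAH2 without control library 1. Of 36 other HIF targets, 8 rose and 7 fell, with a median of 0.19. Leaving out 1 library gave 5 to 15 calls, the fewest without siRAB3IP library 2. STC2, a secreted stanniocalcin, had 14.3 and 14.8 CPM in control, 29.9 and 30.2 in siRAB3IP, and 15.8 and 18.1 in siCAMSAP1. It rose 2.07-fold (1.05 ± 0.10, adjusted p = 6.101e-05 by edgeR), more than any of the 34 genes. The circadian repressor BHLHE40 rose (0.51 ± 0.12), while the transferrin receptor TFRC (-0.51 ± 0.12) and the ephrin EFNA3 (-0.85 ± 0.25) fell. The BHLHE40 call ended without control library 2 or siRAB3IP library 1, those of TFRC and EFNA3 without control library 1 or siRAB3IP library 2, and that of EFNA3 also by limma-voom and in a fit of the 2 groups alone. Against siCAMSAP1, 5 of the 36 were higher and 4 lower, among them STC2 (0.82 ± 0.10), CA12 (0.55 ± 0.15), TFRC (-0.71 ± 0.12) and the heme oxygenase HMOX1 (-0.86 ± 0.13). The CA12 call ended without any 1 of the 4 libraries compared, and the count of 9 was 4 without siRAB3IP library 2.

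Of 21 other glycolysis genes tested, 2 rose (9.52%) and 1 fell (4.76%) in siRAB3IP, near the 6.58% and 5.38% of all genes. ENO2, the neuronal enolase, had 21.7 and 25.6 CPM in control, 36.1 and 35.2 in siRAB3IP, and 21.1 and 22.4 in siCAMSAP1, a log2 fold change of 0.59 ± 0.10 (adjusted p = 0.00220 by edgeR) against control and 0.71 ± 0.10 (adjusted p = 0.000813) against siCAMSAP1. It was the 1 gene of this list called between the knockdowns, where 9.29% of all genes were called. The phosphatase TIGAR (0.37 ± 0.11) and the transporter SLC2A12 (-0.46 ± 0.11) lost their calls without siRAB3IP library 2 or control library 2, TIGAR also without siRAB3IP library 1, with upper-quartile scaling and with a mean of at least 5 CPM.

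Around the entry of pyruvate into mitochondria, 3 of 14 genes rose (21.4%) and 5 fell (35.7%) in siRAB3IP, or 8 of 14. Over all genes the shares were 6.58% and 5.38%. CS, citrate synthase, the first enzyme of the citric acid cycle, had 340 and 330 CPM in control, 214 and 172 in siRAB3IP, and 351 and 332 in siCAMSAP1. Both siRAB3IP libraries were far below the other 4, at -0.79 ± 0.10 (adjusted p = 0.000272 by edgeR) against control and -0.82 ± 0.10 (adjusted p = 0.000254) against siCAMSAP1. PC, pyruvate carboxylase, rose by 0.43 ± 0.09 and PDP1, the phosphatase that reactivates pyruvate dehydrogenase, by 0.40 ± 0.09, while PDK4, a kinase that inactivates it, fell (-0.58 ± 0.14). Leaving out 1 library of any group gave 1 to 7 calls in this list, and without siRAB3IP library 2 the 1 call left was CS. PDK4 also lost its call without control library 2 or siRAB3IP library 1, and had a value of -0.56 ± 0.14 (adjusted p = 0.0853 by edgeR) in siCAMSAP1. Between the knockdowns 2 of these 14 genes were higher and 4 lower in siRAB3IP, against 5.14% and 4.15% of all genes. Among them were the carrier subunits MPC1 (0.44 ± 0.09) and MPC2 (-0.49 ± 0.09), which work as a pair. Those calls ended without siRAB3IP library 2, that of MPC1 also without siCAMSAP1 library 1.

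In the pentose phosphate pathway, 1 of 8 genes rose and 1 fell in siRAB3IP (12.5% each), against 6.58% and 5.38% of all genes. They were PGD (0.44 ± 0.08), the cytosolic phosphogluconate dehydrogenase, and H6PD (-0.53 ± 0.09), its counterpart in the endoplasmic reticulum. Each was called in all the analyses that left out 1 library. Of 5 genes tested around the glucose sensor MondoA, edgeR and DESeq2 called 0 in siRAB3IP against control. By edgeR 3 had an unadjusted p under 0.05, as had 5758 of all 22331 genes tested. Between the knockdowns, MLXIPL (-0.74 ± 0.17) and MYC (-0.27 ± 0.08) were lower in siRAB3IP, calls lost without siRAB3IP library 1 or 2 or siCAMSAP1 library 1, and for MYC also in 5 further analyses. For TXNIP, a glucose-responsive gene, the identifier matched lies on a patch sequence and had 0 fragments in every library. A copy on the main chromosome was not matched by symbol, so the level of TXNIP was not measured here. In siCAMSAP1 against control edgeR and DESeq2 called 0 genes in each of these 6 lists, where edgeR called 1.06% of all genes. At an unadjusted p under 0.05 by edgeR there were 10 of 36 other HIF targets and 5 of 21 other glycolysis genes. There were 2 of 14 each among the regulators and around pyruvate entry, and 0 in the pentose phosphate and MondoA lists. Over all genes tested there were 2707 of 22331.

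**Figure D4:**
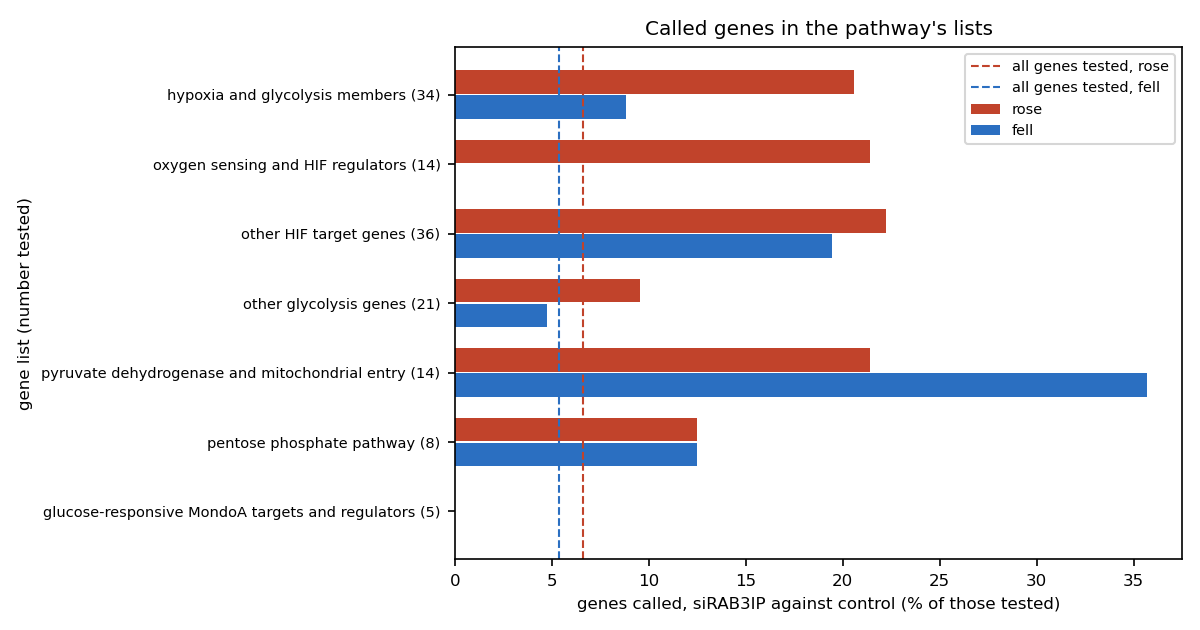
Share of the genes tested in each list (x axis, %) that rose (red) or fell (blue) in siRAB3IP against control, with the number tested in parentheses on the y axis and dashed lines at the shares over all genes tested, 6.58% and 5.38%. The list around mitochondrial pyruvate entry has the highest share of falls, 35.7%, and the MondoA list has none of either kind.

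The authors' deposited table for siRAB3IP lists 2192 genes, and 10 of the 35 are among them, 7 higher and 3 lower: the same 10 genes as called here. The log2 fold changes in the authors' deposited table were 0.95 for ADM, 0.85 for HK2, 0.60 for SLC2A1 and -0.59 for EGLN3. Their deposited table for siCAMSAP1 lists 474 genes and 3 of the 35: ADM (0.48), PFKP (0.25) and GPI (-0.33). Both come from the same libraries and are no separate evidence.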

How the data were processed

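Poly(A) RNA libraries of HEK293 cells, 2 per group, were made with a TruSeq kit. The deposited count columns hold fragments per gene that the authors counted, unstranded, by featureCounts (version 1.6.0), per the file headers; the gene length column is also theirs. STAR, featureCounts, DESeq2 and hg19 are named in the submitters' processing notes, with versions otherwise not given in the sources used here. Deposited comparison tables hold signal columns that the authors scaled by 1 factor per library, with log2 fold changes, a Wald score and p-value columns, and served to name libraries (tolerance 1e-09 in log2 ratio) and for the values credited to them.

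Symbols came from GENCODE release 29 (52181 of 63677 genes). Tests on counts used R 4.3.3 and edgeR 4.0.16 (scaled by TMM, default filter, robust quasi-likelihood test, 3 groups in 1 model, 3 residual degrees of freedom), with Benjamini-Hochberg adjustment over 22331 genes at 0.05. The SE of a log2 fold change is its absolute value divided by the square root of the test's F statistic. It is therefore no estimate separate from the p-value. Levels per kilobase are CPM divided by gene length, which is the length of all annotated exons of the gene and not of 1 transcript. The main test was checked only on counts drawn from its own fitted model, for whether larger planted changes were recovered more often. No limit on false calls was set in that check.

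The 35 genes and all lists were chosen with earlier results of these data known. All 35 are accounted for; those called in a comparison or leading their role by level are given in every library, and of other lists at most the 4 called genes with the largest change per comparison. EPAS1, P4HA1, HK1, PFKFB4 and PDK1 were added to those after their values were seen. The alternatives tried were scaling by RLE or upper quartile, dropping the filter, a mean of at least 5 CPM, fitting the 2 groups alone, limma-voom (limma 3.58.1), DESeq2 1.42.0, a replicate block, each library left out, the grouping by record titles and, added after seeing the data, edgeR without robust spread. Where a library was left out, the lone library of its group was assumed to vary like the others. Some results on the marker lists are not reported here. Tables and plots used Python 3.11.15.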

Additional observations from a re-analysis of the deposited data

How the results depend on the processing

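With 2 libraries per group and 3 residual degrees of freedom, changes of the size seen in PFKL or VEGFA sit near what these data can call, and p-values rest on a spread shared over groups. For single genes among the 35, and leaving aside the grouping by record titles, 489 of 507 checks of siRAB3IP against control kept their side of the threshold. The number was 491 of 507 for siCAMSAP1 and 464 of 507 between the knockdowns, and 0 called genes reversed. Most of these checks were of genes not called, so the counts say little about the calls. The 10, 1 and 7 called genes lost their call in 11, 8 and 19 checks, and uncalled genes gained one in 7, 8 and 24. In siCAMSAP1 all 8 losses were of ADM, out of its 15 checks. Grouped by record titles, edgeR called 0 genes and 0 of the 34 in each comparison; unadjusted p was under 0.05 for 330, 437 and 456 genes, and for 0, 1 and 0 of the 34, and DESeq2 was not run on that grouping.

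Libraries with the same number deviated together (correlation of deviations 0.286, 0.314 and 0.253 over the 3 pairs of groups), but only 2 numbers exist and the labels tie them to nothing, so they were not taken as pairs. A paired fit with a replicate block called 5590, 1646 and 4833 genes in siRAB3IP against control, siCAMSAP1 against control and siRAB3IP against siCAMSAP1, and 16, 5 and 15 of the 34 genes. The 6 genes added in siRAB3IP against control were PFKM, PFKP, ALDOC, PGK1, PGAM1 and PDK1, each higher.

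In siCAMSAP1 against control, the count of genes was 676 with no filter, 152 in the 2 groups alone and 388 by DESeq2, where 237 are reported. Of the 34, 2 were called with upper-quartile scaling, no filter or DESeq2, and 0 in the 2 groups alone, without robust spread or by limma-voom. Leaving out 1 library gave 1160 to 2675 genes and 5 to 10 of the 34 in siRAB3IP against control, fewest genes without siRAB3IP replicate 2 and fewest of the 34 without siRAB3IP replicate 1. There were also 1307 genes without siRAB3IP replicate 1 and 1680 without control replicate 2. It gave 86 to 425 genes and 0 to 1 of the 34 in siCAMSAP1 against control, and 719 to 2652 genes and 2 to 10 of the 34 between the knockdowns. The siCAMSAP1 genes were fewest without siCAMSAP1 replicate 2, with 127 and 135 without siCAMSAP1 replicate 1 and control replicate 2, and most without control replicate 1. Between the knockdowns they were fewest without siRAB3IP replicate 2, with 1133, 976 and 1261 without siRAB3IP replicate 1, siCAMSAP1 replicate 1 and siCAMSAP1 replicate 2. The cause of these shifts was not tested.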
